A study of Homo sapiens with 34 samples.

Results

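A pair of androgen-sensitive prostate cancer cell lines, MDAPCa2a and LNCaP, were compared as they grew on plastic in their own control medium. MDAPCa2a is labelled as prostate epithelium from a bone metastasis and LNCaP as prostate epithelium from a lymph node metastasis, and the study uses LNCaP as a model of early adenocarcinoma. The comparison was chosen by the sample labels alone and holds 4 of the series' 34 libraries, 2 for each line. The other libraries come from these lines and from the prostate lines RWPE and VCaP, on plastic or on a coating of amorphous calcium phosphate (ACP), a bone-like mineral, with control medium, with serum stripped of steroid hormones by charcoal-dextran, or with stripped serum and added androgen. Reads of poly(A)-selected RNA were counted per gene. MDAPCa2a was grown in BRFF-HPC1 base medium with 20% fetal bovine serum on plastic covered with FNC coating mix, and LNCaP in RPMI with 10% fetal bovine serum on plastic with no coating named. Line, base medium, serum share and coating therefore moved together, and what each of them adds to a difference cannot be told apart. The labels call these 4 libraries continuous culture and those of every other condition day 4, whereas the treatment protocol has the plastic control flasks passaged and grown for 4 days like the rest. No label says that the 2 libraries of a line came from separate cultures, so the spread between them may be technical. The p-values measure only the spread between libraries of the same group, pooled over the 17 groups of the series.

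Both lines are known as luminal-type cells whose growth is driven by androgens, and MDAPCa2a is also known to respond to glucocorticoids. Luminal cells of the prostate secrete proteins such as KLK3 (prostate-specific antigen) under androgen control, while basal cells below them express TP63 and KRT5. Lines from different patients can also differ in the set of silenced genes, the growth factors made and the molecules shown to the immune system.

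The MDAPCa2a libraries held 34947115 and 38320523 counts and the LNCaP libraries 44779246 and 42479100. Across the 17323 genes tested, log2 CPM (read counts relative to the TMM-scaled library total) correlated at 0.992 between the MDAPCa2a libraries, at 0.993 between the LNCaP libraries and at 0.905 to 0.910 between lines, as a description. Plastic control libraries of all 4 lines in the series stand apart from the other conditions by low levels of liver transcripts. Of 8 hepatocyte markers tested here 1 was called (12.5%, beside 40.2% of all genes). It was TTR, lower in MDAPCa2a, and that call was lost without either LNCaP library or without the second MDAPCa2a library. The summed level of the list was 24.3 to 29.5 CPM in MDAPCa2a and 33.4 to 37.2 CPM in LNCaP. FGG, a fibrinogen chain, read 2.38 and 1.41 CPM against 2.43 and 2.52 CPM. A total of 225 genes were higher in plastic control than elsewhere in all 4 lines, and without them 6896 genes were called in the comparison below in place of 6965.

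Of the 17323 genes tested, 6965 (40.2%) differed between the lines at an adjusted p below 0.05 in edgeR's quasi-likelihood test. MDAPCa2a was higher in 3335 of them (19.3% of genes tested) and lower in 3630 (21%), and the median log2 difference over all genes was -0.03. Differences are given as log2 of MDAPCa2a over LNCaP, so a positive value is a higher level in MDAPCa2a, with their standard error (SE). Among called genes, 2089 were higher and 2602 lower by at least 1 on the log2 scale, 314 and 437 by at least 5, and 27 and 43 by at least 8. The 2 libraries of each line did not overlap in 13653 genes (78.8% of those tested). The same lines were also compared in 12 separate libraries of 3 other conditions. On plastic with stripped serum 7375 genes (42.6%) were called, on ACP with stripped serum 7875 (45.5%), and on ACP with androgen 7854 (45.3%). Of the genes higher in MDAPCa2a here, 2622 were also higher on plastic with stripped serum (78.6% of the 3335 and 72.7% of the 3609 called there). Of those lower here, 2777 were also lower there (76.5% of the 3630 and 73.7% of the 3766 there). All 4 conditions called 1932 genes higher in MDAPCa2a and 2004 lower. By contrast, 9 genes called higher here were called lower on plastic with stripped serum, and 21 the other way.

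**Figure D1:**
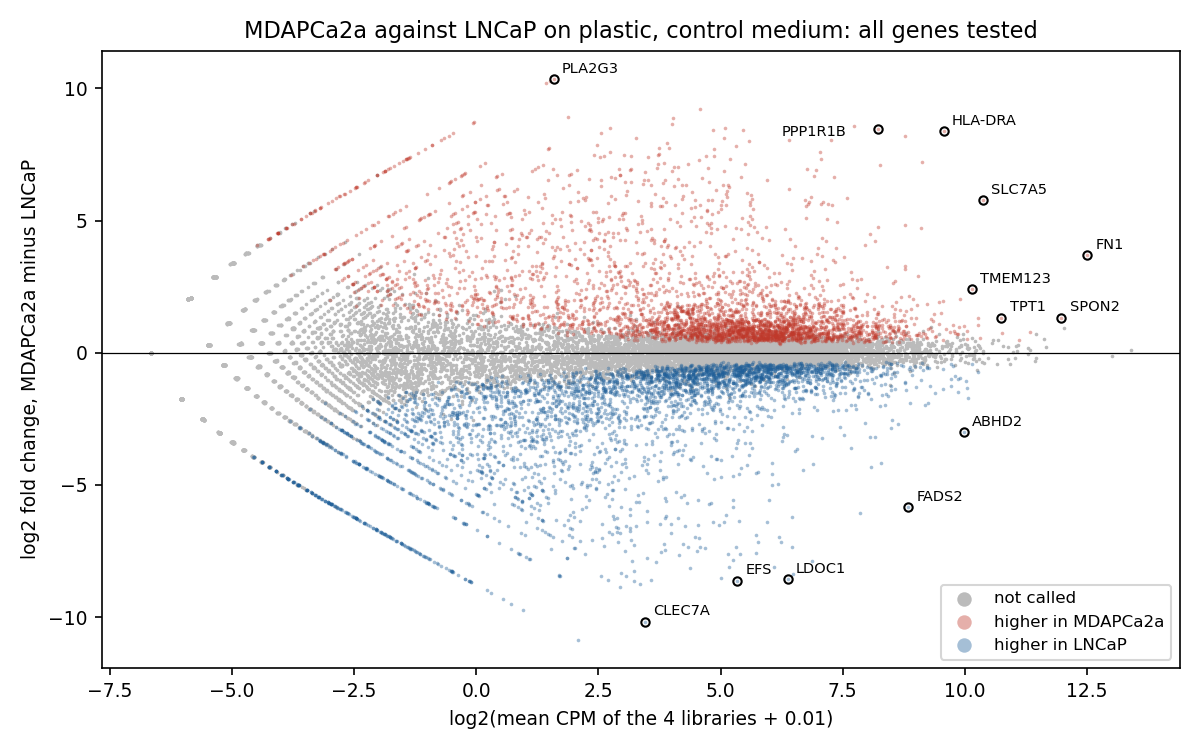
Log2 difference between MDAPCa2a and LNCaP on plastic in control medium (vertical axis) against the log2 mean level of the 4 libraries in CPM + 0.01 (horizontal axis), 1 point for each of 17323 genes. Red points are the 3335 genes called higher in MDAPCa2a, blue points the 3630 called lower, grey points were not called, and circled genes are named.

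The luminal markers of the prostate were present in both lines. HOXB13, the prostate's lineage homeobox factor, read 923 and 1002 CPM in MDAPCa2a and 763 and 717 CPM in LNCaP, and the luminal keratin KRT18 read 462 and 495 against 479 and 459 CPM; neither was called. Of 10 luminal markers, 5 were higher in MDAPCa2a and 1 was lower (50% and 10%, beside 19.3% and 21% of all genes), and their summed level was 4888 to 5084 CPM against 3789 to 3923 CPM. MSMB, a secreted microseminoprotein, stood at 28.8 and 40.2 CPM in MDAPCa2a and 0.359 and 0.353 CPM in LNCaP, which differ by 6.58 ± 0.76 (SE; edgeR adjusted p = 1.3e-07) on the log2 scale. KRT19 stood at 339 and 419.6 against 6.68 and 6.42 CPM (5.85 ± 0.50 SE, edgeR adjusted p = 7.9e-10). FOXA1, a pioneer factor that opens chromatin in luminal cells, stood at 1118 and 1139.7 against 673 and 599.8 CPM (0.83 ± 0.21 SE, edgeR adjusted p = 0.0022). In MSMB, KRT19 and FOXA1 every MDAPCa2a library was above every LNCaP library. Without each library in turn, 3 or 4 luminal markers were higher and 0 lower.

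Markers of other cell types were mostly low in both lines; in bulk libraries fewer cells of a type and less RNA per cell cannot be told apart. The basal markers TP63 (0.268 and 0.221 CPM in MDAPCa2a, 0.148 and 0.309 CPM in LNCaP) and KRT5 (5.95 and 5.19 CPM in MDAPCa2a, 5.05 and 13 CPM in LNCaP) were not called. Of 8 basal markers 1 was higher and 1 lower (12.5% and 12.5%, beside 19.3% and 21% of all genes). Their summed levels were 48.5 to 51.6 CPM against 40.6 to 52.0 CPM. Of 9 neuroendocrine markers tested, DDC, the aromatic amino acid decarboxylase, was higher in MDAPCa2a (137 and 124 against 14.5 and 18 CPM; 3.01 ± 0.54 SE, edgeR adjusted p = 7e-05). SCG3, a granin, was lower, a call lost without the second library of either line. The 1 higher and the 1 lower gene were each 11.1% of the list, beside 19.3% and 21% of all genes. The defining neuroendocrine marker CHGA, chromogranin A, read 0.238 and 0.165 CPM in MDAPCa2a and 0.232 and 0.552 CPM in LNCaP, and SYP, synaptophysin, 1.79 and 2.18 against 2.87 and 2.6 CPM; neither was called. Of 7 fibroblast markers 2 were called, both lower in MDAPCa2a (28.6%, beside 21% of all genes). The list had summed levels of 4.91 to 6.43 CPM against 22.05 to 27.5 CPM. THY1 had 0 reads in all 4 libraries. COL1A1, the main chain of collagen I, read 2.5 and 2.95 against 22.2 and 17.9 CPM (-2.88 ± 0.32 SE, edgeR adjusted p = 9.2e-08). VWF, an endothelial clotting factor, read 1.43 and 0.745 against 29.8 and 27.1 CPM (-4.71 ± 0.43 SE, edgeR adjusted p = 2.4e-09). The endothelial marker PECAM1 had 0 reads in all 4 libraries. The summed endothelial level was 1.27 to 2.44 CPM in MDAPCa2a and 27.8 to 30.5 CPM in LNCaP. Of 5 endothelial markers tested VWF was the 1 lower in MDAPCa2a and KDR, a receptor of vascular endothelial growth factor, the 1 higher. Each was 20% of the list, beside 21% of all genes lower and 19.3% higher. KDR read 0.476 and 0.165 against 0.0211 and 0.0441 CPM, from 22 and 3 reads, a ratio of 9.72 (95% interval 2.92 to 50.7; edgeR adjusted p = 0.031), and its call was lost when any 1 of 3 libraries was left out. Leukocyte markers summed to 6.48 to 7.26 CPM in MDAPCa2a and 18.7 to 19.03 CPM in LNCaP, and CD3E had 0 reads in all 4 libraries.

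MHC class II molecules display peptides to helper T cells and are normally made by antigen-presenting cells, where the transactivator CIITA joins RFX, CREB and NF-Y proteins on a shared promoter element, the X and Y boxes. Of 14 class II genes tested, a family added after values were seen, 9 were higher in MDAPCa2a and 1 was lower (64.3% and 7.14%, beside 19.3% and 21% of all genes), with a median difference of 2.78 beside -0.03 over all genes. HLA-DRA, the alpha chain of HLA-DR, read 1435 and 1583 CPM in MDAPCa2a and 2.62 and 6.44 CPM in LNCaP, a difference of 8.38 ± 0.51 (SE; edgeR adjusted p = 1.8e-12). HLA-DQB1, a DQ beta chain, read 158 and 174 against 13.9 and 13.7 CPM (3.59 ± 0.27 SE, edgeR adjusted p = 1.3e-10). HLA-DQB2 read 54.3 and 60.5 against 0.0845 and 0.243 CPM (8.43 ± 0.47 SE, edgeR adjusted p = 4.3e-13). In each of these the lowest MDAPCa2a library lay far above the highest LNCaP library. HLA-DRB1, the DR beta chain, read 9.52 and 12.3 against 0.275 and 0.353 CPM (5.10 ± 0.54 SE, edgeR adjusted p = 3e-08). HLA-DQA1 and HLA-DQA2 had 3 reads and 1 read in LNCaP, which gives ratios of 42.9 (95% interval 14.2 to 212) and 107 (18.7 to 4294). The peptide-loading chains HLA-DMB (43.9 and 39.2 against 8.47 and 8.96 CPM) and HLA-DMA (26.9 and 24.8 against 13.7 and 10.6 CPM) were also higher, by 2.25 ± 0.43 and 1.10 ± 0.33. HLA-DMA was not called without the second LNCaP library or the first MDAPCa2a library (highest edgeR adjusted p = 0.102). HLA-DPA1 alone was lower (0.952 and 0.386 against 2.22 and 2.76 CPM; -1.89 ± 0.50 SE, edgeR adjusted p = 0.0036), and without the second MDAPCa2a library it was not called (adjusted p = 0.085).

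Of 9 genes of the class II transcription complex with the invariant chain CD74, a list added after values were seen, edgeR called 0, beside 40.2% of all genes. In it 2 genes (RFX5 and RFXAP) had an unadjusted p below 0.05. CIITA read 0.179 and 0.11 CPM in MDAPCa2a and 0.296 and 0.0883 CPM in LNCaP, from 10 and 18 reads, with overlapping libraries. CD74, the chaperone of class II chains and a usual target of CIITA, read 6.19 and 4.69 against 10.5 and 10.1 CPM (-0.92 ± 0.64 SE, edgeR adjusted p = 0.27). CD74 was among the 225 genes higher in plastic control than elsewhere in all 4 lines, and what this adds to its level was not tested. RFX5, the large RFX subunit, read 109 and 112 against 147 and 133 CPM (edgeR adjusted p = 0.061). Of the 9 genes, 1 was called lower in MDAPCa2a with RLE scaling, 1 with DESeq2 and 3 in a fit of the 4 libraries alone. In the other 3 conditions, 9, 9 and 8 class II genes were higher in MDAPCa2a and 1, 1 and 2 were lower, and HLA-DRA differed by 8.66, 10.24 and 8.83. Class II genes resemble one another and vary between people, so reads can be split between copies and lost in 1 line more than in the other, and the part of this in single genes was not tested.

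**Figure D2:**
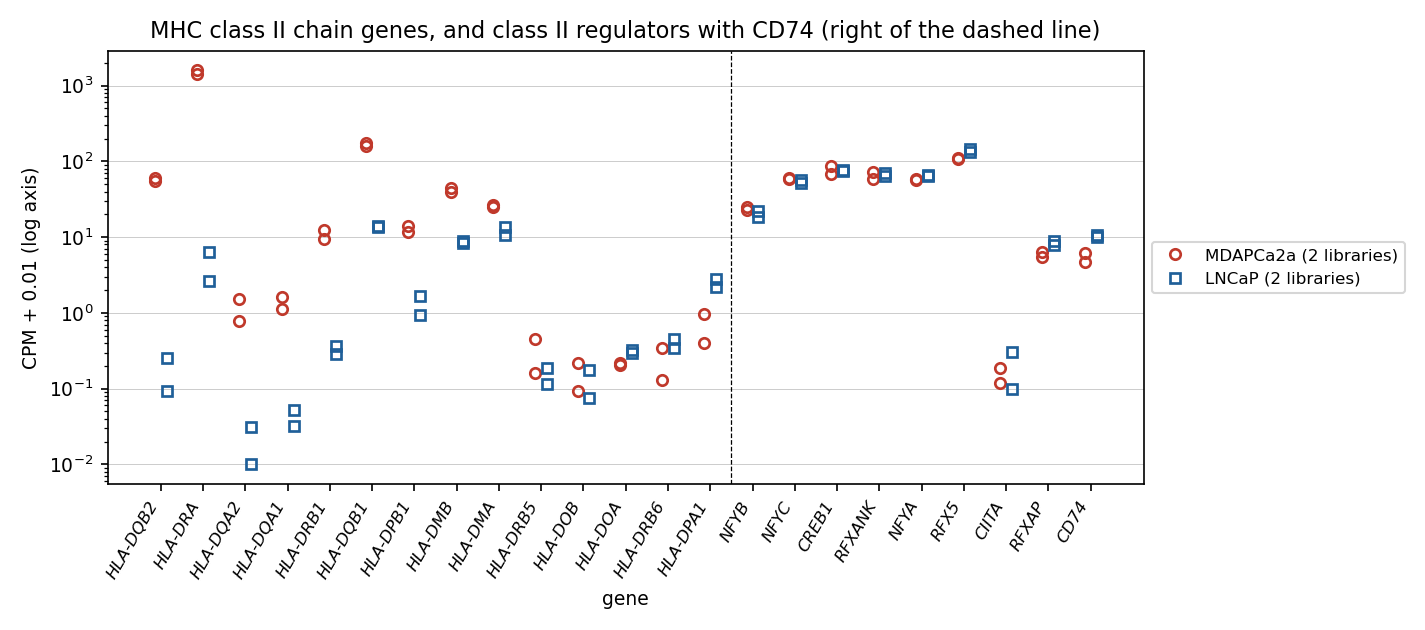
Level of 14 MHC class II genes (left of the dashed line) and of 9 class II regulators with CD74 (right) in CPM + 0.01 on a log axis, 1 point for each library, red circles for MDAPCa2a and blue squares for LNCaP. HLA-DRA stands at 1435 and 1583 CPM in MDAPCa2a against 2.62 and 6.44 CPM in LNCaP, while CIITA reads 0.296 CPM at most.

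The promoters of 4 of the higher class II genes are printed to show the element they share, and were chosen because they hold it. Sequences are the 250 bases before and 50 bases after the gene start in RefSeq (GRCh38.p14), read 5′ to 3′ on the gene's strand, which is minus for all 4. They are reference sequence, not that of these lines, and the authors' counts used another build. The windows are HLA-DQB2 (chr6:32763483-32763782), HLA-DQB1 (chr6:32666608-32666907), HLA-DRB1 (chr6:32589799-32590098) and HLA-DMA (chr6:32953048-32953347). Capitals mark CTGATTGG, the core of the class II Y box (searched on both strands; it contains ATTGG, an inverted CCAAT motif), which starts at position -91 in HLA-DQB2 and HLA-DQB1, -49 in HLA-DRB1 and -82 in HLA-DMA relative to the gene start.
HLA-DQB2: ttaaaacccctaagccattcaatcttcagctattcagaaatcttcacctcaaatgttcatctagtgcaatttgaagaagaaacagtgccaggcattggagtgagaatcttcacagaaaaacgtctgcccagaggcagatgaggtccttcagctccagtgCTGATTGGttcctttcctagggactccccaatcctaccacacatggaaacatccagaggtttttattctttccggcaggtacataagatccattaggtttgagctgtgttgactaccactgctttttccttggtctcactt
HLA-DQB1: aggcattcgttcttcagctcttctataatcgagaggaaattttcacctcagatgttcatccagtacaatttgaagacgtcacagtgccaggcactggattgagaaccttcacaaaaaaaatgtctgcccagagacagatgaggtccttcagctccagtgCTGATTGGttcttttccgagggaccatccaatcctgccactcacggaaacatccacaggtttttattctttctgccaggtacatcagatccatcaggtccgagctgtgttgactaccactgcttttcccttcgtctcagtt
HLA-DRB1: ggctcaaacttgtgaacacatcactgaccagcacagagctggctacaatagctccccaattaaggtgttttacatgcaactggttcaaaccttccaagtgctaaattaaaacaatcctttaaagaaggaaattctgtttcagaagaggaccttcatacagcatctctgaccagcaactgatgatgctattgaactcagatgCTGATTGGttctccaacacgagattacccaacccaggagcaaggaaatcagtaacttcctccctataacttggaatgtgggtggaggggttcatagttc
HLA-DMA: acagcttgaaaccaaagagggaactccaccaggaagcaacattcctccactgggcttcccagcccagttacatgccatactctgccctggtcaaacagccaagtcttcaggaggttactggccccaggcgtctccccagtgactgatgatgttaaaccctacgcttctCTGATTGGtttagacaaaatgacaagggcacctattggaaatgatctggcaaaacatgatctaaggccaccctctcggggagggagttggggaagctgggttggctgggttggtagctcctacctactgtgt

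Of the 9 higher class II genes, 8 had a promoter in the table and 5 of these held the 8-base motif, beside 4.16% of 27305 promoters of the same length. The Y box is a known element of class II promoters, so this share is no test of the difference between lines. Among the 12 tested class II genes with a promoter, 6 held it, HLA-DRB5 (not called) included. The 3 higher genes without it were HLA-DQA1, HLA-DPB1 and HLA-DMB.

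Class I antigen presentation, which shows peptides of the cell's own proteins to cytotoxic T cells, held 4 higher and 4 lower genes in MDAPCa2a of 19 tested (median 0.22). These shares, 21.1% and 21.1%, beside 19.3% and 21% of all genes, lay near those of all genes and are no result about the list. PSMB8, an immunoproteasome subunit, read 31.3 and 32.4 CPM in MDAPCa2a and 2.03 and 1.99 CPM in LNCaP (3.98 ± 0.58 SE, edgeR adjusted p = 4.2e-06). ERAP2, a peptide-trimming enzyme, read 31.9 and 22.9 against 1.27 and 1.68 CPM (4.21 ± 0.41 SE, edgeR adjusted p = 1e-08). NLRC5, the class I transactivator, was lower, with 1.52 and 1.3 against 8.22 and 7.95 CPM (-2.52 ± 0.40 SE, edgeR adjusted p = 1.5e-05). HLA-B (116.2 and 125.7 against 115.7 and 129.5 CPM), HLA-C (349 and 374 against 304 and 316 CPM) and B2M (304 and 299 against 236 and 251.2 CPM) were not called. Of 30 interferon-stimulated genes, which respond to type I or type II interferon, 7 were lower in MDAPCa2a and 1 was higher (median -0.63, or -0.61 with a gene at 0 reads placed at its bound). The lower share, 23.3%, beside 21% of all genes, lay near that background, while 3.33% were higher, beside 19.3%. Leaving out any 1 library gave 3 to 6 lower and 0 higher. ISG20, an interferon-induced exonuclease, read 5.18 and 5.85 against 31.9 and 28.1 CPM (-2.44 ± 0.48 SE, edgeR adjusted p = 0.00023). OAS3, a sensor of double-stranded RNA, read 9.25 and 13.5 against 37.2 and 43.3 CPM (-1.82 ± 0.46 SE, edgeR adjusted p = 0.0023).

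The MAPK (RAS-ERK) cascade carries growth factor signals, and active ERK is known to induce its own brakes, the DUSP phosphatases and the SPRY and SPRED proteins, together with the ETS variant factors ETV1, ETV4 and ETV5. Of 21 such genes tested, from a list added after values were seen, 14 were higher in MDAPCa2a and 2 lower (66.7% and 9.52%, beside 19.3% and 21% of all genes), with a median of 1.94 beside -0.03 over all genes. Without any 1 library, 11 or 12 were higher and 1 lower. SPRY4 read 883 and 858 CPM in MDAPCa2a and 2.3 and 3.64 CPM in LNCaP (8.19 ± 1.03 SE, edgeR adjusted p = 5.3e-07). DUSP6, the phosphatase specific to ERK, read 45.5 and 36.6 against 0.908 and 0.927 CPM (5.48 ± 0.43 SE, edgeR adjusted p = 2.2e-10). DUSP4 read 389.9 and 428 against 57.1 and 60.2 CPM (2.80 ± 0.32 SE, edgeR adjusted p = 1.5e-07). Every MDAPCa2a library was above every LNCaP library in these 3 genes. Among the ETS variant factors, ETV4 read 89.8 and 89.5 against 0.57 and 0.684 CPM (7.15 ± 0.45 SE, edgeR adjusted p = 4.3e-12). ETV5 read 55.4 and 56.5 against 0.803 and 1.24 CPM (5.77 ± 0.64 SE, edgeR adjusted p = 8e-08). ETV1, an oncogenic ETS factor in prostate cancer, was high in both and higher in MDAPCa2a, with 1213 and 1038 against 313 and 276 CPM (1.94 ± 0.28 SE, edgeR adjusted p = 3.7e-06). SPRY2, a further member of the Sprouty family, went the other way, with 0.0893 and 0.0827 CPM in MDAPCa2a and 2.73 and 2.69 CPM in LNCaP (-4.91 ± 0.47 SE, edgeR adjusted p = 1.1e-08). CCND1 (cyclin D1; 567 and 573 against 508 and 498 CPM) and the immediate-early factor EGR1 (3.54 and 0.8 against 1.92 and 2.45 CPM) were not called. In the other 3 conditions the list gave 14 higher and 1 lower each time.

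**Figure D3:**
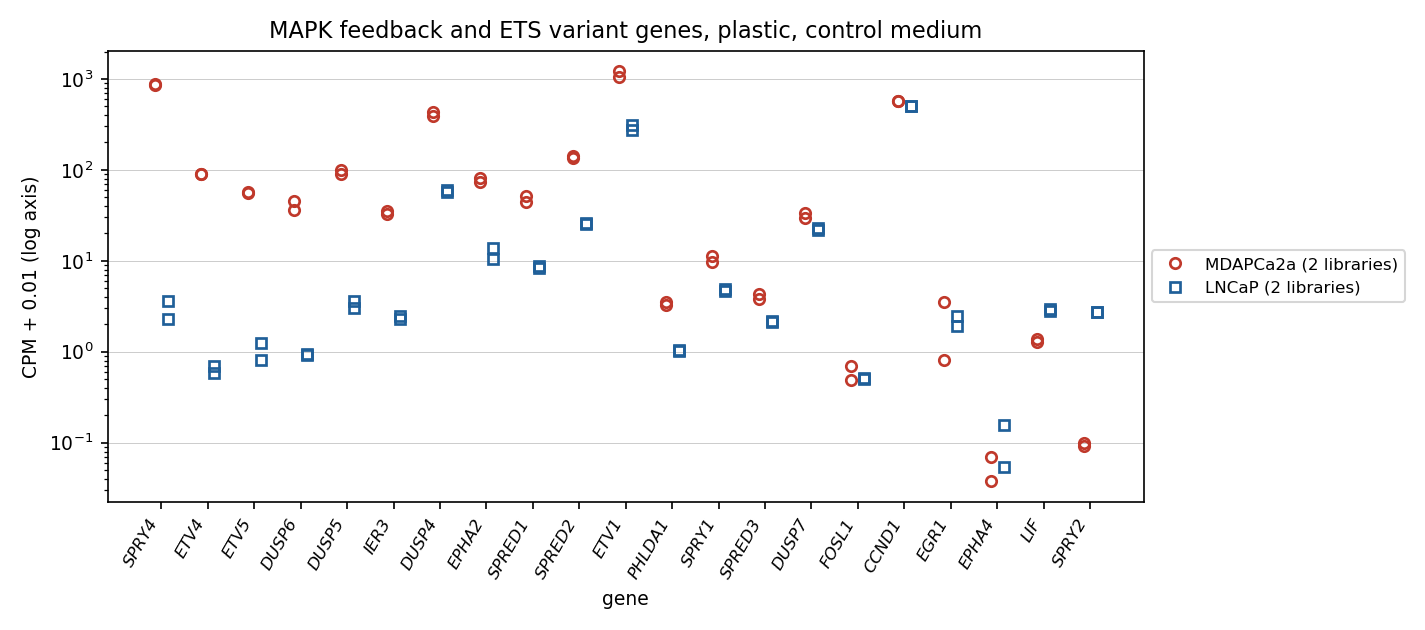
Level of 21 MAPK feedback and ETS variant genes in CPM + 0.01 on a log axis, ordered by the difference between lines, 1 point for each library, red circles for MDAPCa2a and blue squares for LNCaP. SPRY4 to DUSP4 lie apart in every library, and SPRY2, at the right end, is the one with a large difference in favour of LNCaP.

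Growth factors and their carriers differed in both directions. Of 22 genes of EGF receptor and IGF signalling, 8 were higher and 4 lower in MDAPCa2a (36.4% and 18.2%, beside 19.3% and 21% of all genes; median 0.32). TGFA, a ligand of the EGF receptor, read 218 and 198 CPM in MDAPCa2a and 3.25 and 4.26 CPM in LNCaP (5.79 ± 0.36 SE, edgeR adjusted p = 2.7e-12). EGF itself read 4.79 and 3.31 against 31.2 and 28.5 CPM (-2.88 ± 0.27 SE, edgeR adjusted p = 5.8e-09). IGFBP3, the main binding protein of insulin-like growth factors, read 1230.01 and 997 against 6.51 and 8.37 CPM (7.23 ± 0.93 SE, edgeR adjusted p = 7.3e-07). IRS1, an adaptor of the IGF and insulin receptors, read 73.4 and 68.7 against 12.9 and 14.2 CPM (2.39 ± 0.34 SE, edgeR adjusted p = 3.9e-06). Among the receptors, EGFR read 55.5 and 39.4 against 44.2 and 44.1 CPM and was not called (edgeR adjusted p = 0.88). INSR, the insulin receptor, read 86.9 and 82.4 against 34.8 and 35 CPM (1.28 ± 0.19 SE, edgeR adjusted p = 8.9e-06). IGF1R, the receptor of insulin-like growth factors, read 57.4 and 63.7 against 27.7 and 26.3 CPM (1.17 ± 0.32 SE, edgeR adjusted p = 0.0045). IGF2R, which clears IGF2 into lysosomes, was lower in MDAPCa2a, at 156 and 179.8 against 541 and 461 CPM (-1.58 ± 0.33 SE, edgeR adjusted p = 0.0004). These 3 calls held whichever library was left out. Calls of 2 further receptors of the EGF receptor family, 1 higher and 1 lower, were lost whichever library was left out.

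WNT ligands act through Frizzled receptors and, in the canonical branch, through the LEF1 and TCF factors; AXIN2, RNF43 and NKD1 are known feedback targets. Of 27 WNT genes tested, 11 were higher and 6 lower in MDAPCa2a (40.7% and 22.2%, beside 19.3% and 21% of all genes; median 0.67). WNT5A, a mostly non-canonical ligand, read 308 and 231 CPM in MDAPCa2a and 4.61 and 5.63 CPM in LNCaP (5.72 ± 0.35 SE, edgeR adjusted p = 2.5e-12). LEF1 read 38.8 and 48.1 against 1.52 and 1.61 CPM (4.79 ± 0.28 SE, edgeR adjusted p = 9.4e-13). WNT7B read 106 and 107 against 27.3 and 26.2 CPM (1.99 ± 0.23 SE, edgeR adjusted p = 2e-07). The ligand WNT10B read 1.22 and 1.54 against 15.4 and 14.3 CPM (-3.42 ± 0.37 SE, edgeR adjusted p = 5.3e-08). The feedback genes differed in direction. RNF43 read 68.5 and 67.5 against 7.39 and 8.98 CPM (3.05 ± 0.25 SE, edgeR adjusted p = 5.8e-10). NKD1 read 0.327 and 0.11 against 8.01 and 7.24 CPM (-5.11 ± 0.57 SE, edgeR adjusted p = 8.3e-08). AXIN2, not called, read 9.08 and 8.47 against 5.77 and 5.58 CPM. The differences of WNT5A and LEF1 were smaller on plastic with stripped serum, at 2.69 and 2.54, and the change in the difference passed its own test (edgeR adjusted p = 0.0001 and 0.0004).

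The 12 largest differences in favour of MDAPCa2a, among called genes of at least 5 CPM in the higher line, were of at least 8.44 on the fitted log2 scale. PLA2G3, a secreted phospholipase, IL5RA, the interleukin-5 receptor chain, and EDN1, the vasoactive peptide endothelin known for its part in bone-forming metastases, had 0 reads in both LNCaP libraries. Their MDAPCa2a levels were 6.25 and 5.71 CPM, 5.77 and 5.52 CPM and 5.03 and 5.65 CPM, at least 184-fold, 174-fold and 165-fold above a floor of 3 counts over the LNCaP group. CREB3L1, a transcription factor of the secretory pathway, read 432 and 419.6 CPM in MDAPCa2a and 0.718 and 1.52 CPM in LNCaP (8.57 ± 0.51 SE, edgeR adjusted p = 1.2e-12). PPP1R1B, the phosphatase inhibitor known as DARPP, read 610.4 and 574 against 1.1 and 2.3 CPM (8.45 ± 0.33 SE, edgeR adjusted p = 1.6e-15). Both were abundant in MDAPCa2a and low in LNCaP, where they had 103 and 156 reads. The secreted protein BPIFB2 (58.1 and 37 against 0 and 0.155 CPM), the enamel protease MMP20 (36.2 and 28.5 against 0 and 0.132 CPM) and the heparanase homologue HPSE2 (79.4 and 56.5 against 0.211 and 0.155 CPM) differed by 9.21 ± 0.75, 8.86 ± 0.62 and 8.50 ± 0.58. Members of the CEACAM family on chromosome 19 were among them, CEACAM20 (96.1 and 79.8 against 0.211 and 0.287 CPM) and the pseudogene CEACAM22P (30 and 34.2 against 0.0634 and 0.0883 CPM). Of 7 CEACAM genes tested, a family added after values were seen, 3 were higher in MDAPCa2a, 1 was lower and 3 were not called. The shares higher and lower were 42.9% and 14.3%, beside 19.3% and 21% of all genes. The median was -1.75, or -0.33 with the gene at 0 reads in 1 line placed at its bound. CEACAM19 was the third higher one (15.1 and 17.2 against 1.71 and 2.25 CPM) and CEACAM1 the lower one (0.238 and 0.11 against 0.592 and 0.927 CPM), whose call was lost when any 1 of 3 libraries was left out. The long noncoding RNA DSCR8 and the glycoprotein GP2 had 1 and 3 reads in LNCaP, with ratios of 679 (95% interval 121 to 26869) and 417 (142 to 2025). All 12 were also called higher in the other 3 conditions, at differing sizes. On plastic with stripped serum, ACP with stripped serum and ACP with androgen, in this order, EDN1 differed by 5.28, 2.75 and 2.32 and IL5RA by 4.98, 6.39 and 5.70. GP2 differed by 12.39, 5.24 and 5.31 and HPSE2 by 10.49, 5.45 and 6.63, and the other 8 genes by 7.50 to 11.81 over the 3 conditions.

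The 12 largest differences in favour of LNCaP were of at least 8.45 in size, as fitted. DDX43, an RNA helicase of the cancer-testis group, read 8.56 and 8.32 CPM in LNCaP and had 0 reads in both MDAPCa2a libraries, at least 197-fold lower there. CLEC7A, the innate beta-glucan receptor dectin, read 20.1 and 23.6 CPM in LNCaP with 1 read in MDAPCa2a, a ratio of 1523 (95% interval 273 to 60196). LDOC1, an X-linked regulator of transcription, read 0.506 and 0.359 CPM in MDAPCa2a and 165 and 166 CPM in LNCaP (-8.57 ± 0.28 SE, edgeR adjusted p = 7.1e-17). EFS, an adaptor of SRC-family kinases, read 0.179 and 0.221 against 84 and 77.1 CPM (-8.62 ± 0.39 SE, edgeR adjusted p = 1.3e-14). The LNCaP libraries were high and close together in both genes, and both MDAPCa2a libraries were near 0. MMP16, a membrane-bound matrix protease, read 0.208 and 0.138 against 58.1 and 70.2 CPM (-8.51 ± 0.48 SE, edgeR adjusted p = 1.3e-12). The pseudogene NUDT16P1 read 0.0298 and 0.0827 against 25.1 and 22.8 CPM (-8.60 ± 0.49 SE, edgeR adjusted p = 7.5e-13). FCAMR, MICU3, STK33 and ZC4H2, which encode an immunoglobulin receptor, a mitochondrial calcium regulator, a kinase and a zinc finger protein, and the noncoding RNAs C5orf38 and LINC00960, each had 2 or 3 reads in MDAPCa2a and 11.2 to 21.3 CPM in LNCaP. All 12 were also called lower in MDAPCa2a in the other 3 conditions, by -5.43 to -11.92. All 36 genes that the naming rule gave kept their call when any 1 library was left out (highest adjusted p = 0.0363).

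The differences largest in absolute CPM included secreted and transport proteins. FN1, fibronectin, read 10535 and 11084 CPM in MDAPCa2a and 772 and 889 CPM in LNCaP (3.70 ± 0.38 SE, edgeR adjusted p = 2.5e-08). SPON2, a secreted matrix protein, read 5212 and 6296 against 2405 and 2178 CPM (1.33 ± 0.34 SE, edgeR adjusted p = 0.003). SLC7A5, an exchanger of large neutral amino acids, read 2694 and 2485 against 44.9 and 50.7 CPM (5.76 ± 0.64 SE, edgeR adjusted p = 7.2e-08). TMEM123 differed by 2.41 ± 0.26 and TPT1, translationally controlled tumour protein, by 1.32 ± 0.29; with HLA-DRA these make up the 6 largest. In the other direction ABHD2, a lipid hydrolase, read 225 and 224 against 1715 and 1858 CPM (-2.99 ± 0.30 SE, edgeR adjusted p = 1.7e-08). FADS2, the first desaturase of polyunsaturated fatty acid synthesis, read 15.7 and 16 against 881 and 920.4 CPM (-5.83 ± 0.29 SE, edgeR adjusted p = 4.6e-14). EEF1A2, a tissue-restricted elongation factor, NFIX, a nuclear factor, and ALDOA, the glycolytic aldolase, differed by -1.70 ± 0.29, -1.498 ± 0.20 and -1.34 ± 0.23. That the lines' libraries did not overlap in these genes was set by the naming rule and is no support for their differences.

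Of 30 androgen-induced genes, a readout of the response to androgen, 9 were higher in MDAPCa2a and 9 lower in control medium (30% and 30%, beside 19.3% and 21% of all genes), and the median was 0.06. Without the second LNCaP library 5 were higher and 9 lower. KLK2, a kallikrein close to KLK3, was higher in MDAPCa2a, with 611 and 701 against 90.3 and 107 CPM (2.73 ± 0.70 SE, edgeR adjusted p = 0.0028). PMEPA1, a target of TGF-beta and androgen, was higher too, with 735 and 767 against 189 and 152 CPM (2.14 ± 0.32 SE, edgeR adjusted p = 6.6e-06). SORD, sorbitol dehydrogenase, was lower, with 233 and 282 against 985 and 917 CPM (-1.88 ± 0.26 SE, edgeR adjusted p = 1.8e-06). The transcription factor MAF was lower, with 0.684 and 1.02 against 40.4 and 26.4 CPM (-5.28 ± 0.52 SE, edgeR adjusted p = 1.2e-08). KLK3 read 5349 and 5557 against 2862 and 2815 CPM and did not pass the test (0.94 ± 0.51 SE, edgeR adjusted p = 0.15), although its libraries did not overlap. TMPRSS2, an androgen-regulated protease, read 740.3 and 749 against 1056 and 1011 CPM and FKBP5, an androgen-induced co-chaperone, 177 and 217 against 185 and 158 CPM; neither was called.

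With stripped serum on plastic the same list leaned to MDAPCa2a, with 20 of 30 higher, 1 lower and a median of 2.17, beside 20.8% and 21.7% of all genes. KLK3 stood at 7496 and 8666 CPM in MDAPCa2a and 124 and 135 CPM in LNCaP there, a difference of 5.97, and the change in the difference between media was -5.02 ± 0.76 (SE; edgeR adjusted p = 0.00031). FKBP5 stood at 796 and 852 against 62.9 and 75.4 CPM (difference 3.58, change -3.37 ± 0.41, edgeR adjusted p = 1.9e-05). In control medium the lines were nearer each other in KLK3 and FKBP5. In stripped serum both genes read higher in MDAPCa2a and lower in LNCaP than in control medium. Changes within a line were not tested. The change between media passed the test in 20 of the 30 genes, beside 313 of 17323 genes (1.81%), and all 20 changed towards MDAPCa2a in stripped serum. The control libraries are labelled continuous culture and the stripped ones day 4, so serum and kind of library cannot be told apart in this change. Some crossed over: CENPN, a centromere protein, differed by -1.75 in control medium and 0.80 in stripped serum, and ELOVL5, a fatty acid elongase, by -1.06 and 2.27. On ACP with stripped serum the list gave 16 higher and 4 lower, beside 20.8% and 24.7% of all genes, and on ACP with androgen 3 higher and 13 lower, beside 21.3% and 24%. Leaving out 1 library of the 8 in both media gave 151 to 218 genes whose line difference changed.

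**Figure D4:**
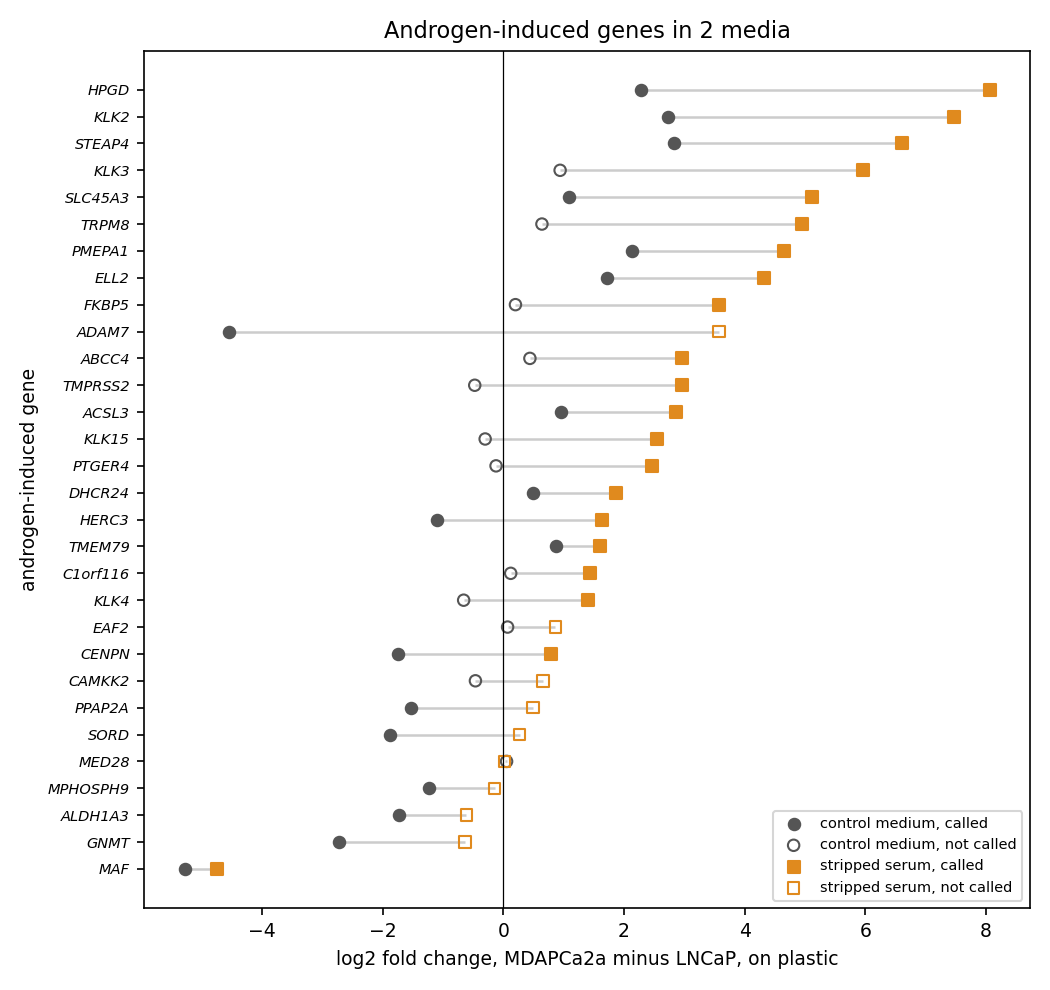
Difference between MDAPCa2a and LNCaP on plastic for 30 androgen-induced genes (log2, horizontal axis) in control medium (grey circles) and in stripped serum (orange squares); filled symbols passed the test, open ones did not. Most squares lie to the right of their circle, as for KLK3 (0.94 and 5.97) and FKBP5 (0.20 and 3.58).

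NR3C1, the glucocorticoid receptor, was far higher in MDAPCa2a, at 63.3 and 54.2 CPM against 2.58 and 1.96 CPM (4.69 ± 0.35 SE, edgeR adjusted p = 9.7e-11). Of 16 glucocorticoid-induced genes, a list that holds NR3C1 itself, 2 were higher and 3 lower in control medium (12.5% and 18.8%, beside 19.3% and 21% of all genes; median -0.01). Without the second LNCaP library or the first MDAPCa2a library 1 was higher. TSC22D3 (GILZ), a classic glucocorticoid target, read 82.7 and 77.5 against 171 and 164 CPM (-1.06 ± 0.28 SE, edgeR adjusted p = 0.0033). SGK1, a kinase induced by corticosteroids, read 1.13 and 1.05 against 4.8 and 4.28 CPM (-2.06 ± 0.43 SE, edgeR adjusted p = 0.00042). In stripped serum 7 were higher and 3 lower (43.8% and 18.8%, beside 20.8% and 21.7% of all genes), and TSC22D3 differed by 1.504 (change between media -2.57 ± 0.40, edgeR adjusted p = 0.00036). Of 24 genes of steroid synthesis and inactivation tested, 4 were higher and 7 lower in MDAPCa2a (16.7% and 29.2%, beside 19.3% and 21% of all genes; median -0.37). UGT2B17, which glucuronidates androgens, read 2.38 and 2.84 CPM in MDAPCa2a and 131 and 119.8 CPM in LNCaP (-5.58 ± 0.90 SE, edgeR adjusted p = 1.9e-05). Its relative UGT2B15 read 0.595 and 0.91 against 42.1 and 35.9 CPM (-5.68 ± 0.61 SE, edgeR adjusted p = 4.1e-08). These genes are near-identical copies, so their single values are uncertain, but both were low in every MDAPCa2a library. HSD17B2, which oxidises testosterone to androstenedione, was higher in MDAPCa2a, with 30.7 and 22.8 against 0.0423 and 0.243 CPM (7.52 ± 0.77 SE, edgeR adjusted p = 2e-08). Of the steroid reductase family, SRD5A1 read 106 and 77.9 against 32.2 and 32.6 CPM (1.504 ± 0.21 SE, edgeR adjusted p = 2.1e-06). SRD5A3 read 16.3 and 17.3 against 79.1 and 77.6 CPM (-2.22 ± 0.19 SE, edgeR adjusted p = 8.1e-10). CYP11A1, the first enzyme of steroid synthesis, read 0.0893 and 0.248 CPM in MDAPCa2a and 5.96 and 5.5 CPM in LNCaP in control medium. In stripped serum it read 18.7 and 20.1 CPM in MDAPCa2a and 0.357 and 1.39 CPM in LNCaP, so that its difference moved from -5.03 to 4.37 (change -9.40 ± 0.95, edgeR adjusted p = 1e-06).

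Of 20 genes for secretory products of the prostate, 9 were higher in MDAPCa2a and 1 was lower (45% and 5%, beside 19.3% and 21% of all genes), with a median of 1.66, or 1.33 with genes at 0 reads in a line placed at their bound. Without the second LNCaP library 5 were higher. AZGP1, a zinc-binding glycoprotein of seminal fluid, read 601 and 551 CPM in MDAPCa2a and 23.2 and 19.6 CPM in LNCaP (4.75 ± 0.49 SE, edgeR adjusted p = 2.1e-08). AGR2, a disulfide isomerase of secretory cells, read 119 and 96.8 against 12.4 and 9.25 CPM (3.32 ± 0.38 SE, edgeR adjusted p = 1e-07). PGC, pepsinogen C, read 37.3 and 54.1 against 8.7 and 7.22 CPM (2.52 ± 0.70 SE, edgeR adjusted p = 0.0053, which became 0.0566 without the second LNCaP library). TFF3, a trefoil peptide, was the lower member, with 0.655 and 0.524 against 3.11 and 4.7 CPM (-2.72 ± 0.69 SE, edgeR adjusted p = 0.0028).

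Of 18 cell-surface proteins that serve as therapy or imaging targets in prostate cancer, 5 were higher and 5 lower in MDAPCa2a (27.8% and 27.8%, beside 19.3% and 21% of all genes). Without any 1 library 3 were higher and 2 to 4 lower. FOLH1, prostate-specific membrane antigen, did not differ beyond its error, at 2421 and 2133 CPM in MDAPCa2a and 1942 and 1922 CPM in LNCaP (difference 0.24 ± 0.38 SE, edgeR adjusted p = 0.66). GRPR, the gastrin-releasing peptide receptor, read 14.6 and 10.9 against 0.338 and 0.375 CPM (5.14 ± 0.42 SE, edgeR adjusted p = 4.7e-10). STEAP2, a metalloreductase of the prostate, read 250.8 and 218 against 928 and 937 CPM (-1.99 ± 0.34 SE, edgeR adjusted p = 3.7e-05). DLL3, a Notch ligand of neuroendocrine tumours, read 0.149 and 0.303 against 7.08 and 6.56 CPM (-4.87 ± 0.45 SE, edgeR adjusted p = 3.4e-09). Of 18 long noncoding RNAs known from prostate cancer, 3 were higher and 5 lower (16.7% and 27.8%, beside 19.3% and 21% of all genes), or 3 lower without the second LNCaP library or either MDAPCa2a library. PCA3, a urine marker of prostate cancer, read 8.72 and 9.27 against 0.444 and 0.199 CPM (4.78 ± 0.68 SE, edgeR adjusted p = 5e-06). PCAT18 read 18.2 and 16.9 against 0.0423 and 0.243 CPM (6.91 ± 0.71 SE, edgeR adjusted p = 3.1e-08). DRAIC read 103 and 101 against 6.97 and 8.32 CPM (3.74 ± 0.32 SE, edgeR adjusted p = 1e-09). SCHLAP1 was higher in LNCaP, with 8.87 and 7.42 against 20.9 and 20.5 CPM (-1.35 ± 0.31 SE, edgeR adjusted p = 0.0012). Antisense or overlapping reads cannot be told apart for these RNAs, since the use of strand in counting is not given in the sources used here.

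Adhesion genes differed in both directions. Of 29 adhesion and epithelial-mesenchymal genes, 8 were higher and 4 lower in MDAPCa2a (27.6% and 13.8%, beside 19.3% and 21% of all genes; median 0.25). CDH1, E-cadherin, read 702 and 659 CPM in MDAPCa2a and 833 and 870.4 CPM in LNCaP and was not called. CDH3, P-cadherin, read 95.5 and 85 against 3.82 and 4.28 CPM (4.48 ± 0.39 SE, edgeR adjusted p = 1.3e-09). PKP1, a desmosomal plakophilin, read 303 and 304 against 4.77 and 7.7 CPM (5.60 ± 0.51 SE, edgeR adjusted p = 3.1e-09). The membrane-cortex linkers took opposite directions. EZR (ezrin) read 670.1 and 672 against 157 and 150.3 CPM (2.12 ± 0.24 SE, edgeR adjusted p = 1e-07). MSN (moesin) read 4.26 and 3.61 against 85.9 and 76.8 CPM (-4.37 ± 0.25 SE, edgeR adjusted p = 9e-13). VIM, the mesenchymal filament vimentin, was lower, at 7.17 and 5.41 against 25.9 and 24.5 CPM (-2.00 ± 0.41 SE, edgeR adjusted p = 0.00036). Of 24 integrins and laminins, 7 were higher and 4 lower (29.2% and 16.7%, beside 19.3% and 21% of all genes), or 4 and 3 without the first MDAPCa2a library. LAMC3, a laminin chain, read 0.0595 and 0.0827 against 4.12 and 5.39 CPM (-5.97 ± 0.45 SE, edgeR adjusted p = 1e-10). Matrix metalloproteinases, a family added after values were seen, gave 5 higher and 5 lower of 17 (29.4% and 29.4%, beside 19.3% and 21% of all genes). MMP7 (matrilysin; 287 and 242 against 1.12 and 2.19 CPM) and MMP10 (stromelysin; 71 and 45.2 against 0.127 and 0.419 CPM) differed by 7.32 ± 0.47 and 7.72 ± 0.80.

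HOX genes encode the position of a tissue along the body axis and are kept on or off by chromatin marks. Of 36 HOX genes tested, 2 were higher and 13 lower in MDAPCa2a (5.56% and 36.1%, beside 19.3% and 21% of all genes; median -0.66). HOXA13, a gene of the caudal end of its cluster, read 11.4 and 7.53 CPM in MDAPCa2a and 0.232 and 0.53 CPM in LNCaP (4.62 ± 0.34 SE, edgeR adjusted p = 5.1e-11). HOXC11 was the other one higher. HOXB6 read 0.0595 and 0.138 against 4.2 and 4.11 CPM (-5.32 ± 0.56 SE, edgeR adjusted p = 8.8e-08). HOXC9 read 0.149 and 0.11 against 4.71 and 4.28 CPM (-5.08 ± 0.48 SE, edgeR adjusted p = 6e-09), while HOXB5 had 0 reads in MDAPCa2a and 1.69 and 1.17 CPM in LNCaP, at least 33.4-fold lower. HOXB13 and HOXC13 (20.8 and 19.2 against 14.2 and 13.5 CPM) were not called.

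Families added after values were seen showed the following. The clustered protocadherins, cell-recognition molecules of which each cell uses a few, gave 5 higher and 0 lower of 13 alpha genes, 0 and 4 of 15 beta genes (0 and 2 without the second MDAPCa2a library), and 1 and 11 of 22 gamma genes, beside 19.3% and 21% of all genes. PCDHA12 read 25.4 and 19.8 against 0.0634 and 0.199 CPM (7.39 ± 0.71 SE, edgeR adjusted p = 6.9e-09). PCDHA11 read 7.62 and 7.03 against 0.0423 and 0.132 CPM (6.33 ± 0.66 SE, edgeR adjusted p = 2.5e-08). PCDHGA10 read 0.833 and 0.386 against 7.84 and 8.23 CPM (-3.72 ± 0.40 SE, edgeR adjusted p = 5.2e-08). Members of a cluster share exons, so the reads of single protocadherin genes are uncertain. All 5 X-linked BEX genes (100%) were called lower in MDAPCa2a, beside 21% of all genes. Their median was -4.02, or -3.48 with the gene at 0 reads placed at its bound. Without the second MDAPCa2a library 3 were called. NGFRAP1 (BEX family, a regulator of cell death) read 1.25 and 0.745 against 227 and 237 CPM (-7.86 ± 0.31 SE, edgeR adjusted p = 1.6e-15). BEX2 read 3.45 and 3.61 against 56.2 and 58.8 CPM (-4.02 ± 0.41 SE, edgeR adjusted p = 1.7e-08). BEX4 read 2.89 and 2.32 against 30.5 and 27.5 CPM (-3.48 ± 0.23 SE, edgeR adjusted p = 7.8e-12). Among 20 imprinted genes 3 were higher and 6 lower (15% and 30%, beside 19.3% and 21% of all genes), or 2 and 3 without the first MDAPCa2a library. PEG3, a paternally expressed zinc finger gene, read 0.625 and 0.441 against 192 and 163 CPM (-8.37 ± 0.63 SE, edgeR adjusted p = 9.5e-11). NDN, of the Prader-Willi region, read 0.0893 and 0.248 against 36.3 and 34.3 CPM (-7.65 ± 0.38 SE, edgeR adjusted p = 4.7e-14). MEST and SGCE, paternally expressed genes of chromosome 7, were higher in MDAPCa2a. MEST read 29.9 and 28.8 against 2.18 and 2.71 CPM (3.58 ± 0.35 SE, edgeR adjusted p = 9.8e-09) and SGCE 10.9 and 10.9 against 0.232 and 0.464 CPM (4.96 ± 0.43 SE, edgeR adjusted p = 1e-09).

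Of 20 amino acid transporters, a list added after values were seen, 10 were higher in MDAPCa2a and 4 lower (50% and 20%, beside 19.3% and 21% of all genes; median 0.70). Without the second LNCaP library 6 were higher and 4 lower. SLC36A1, a lysosomal exporter of small amino acids, read 267 and 249 CPM in MDAPCa2a and 12.2 and 13.2 CPM in LNCaP (4.34 ± 0.39 SE, edgeR adjusted p = 2.4e-09). SLC1A5, the glutamine exchanger, read 1215 and 1166 against 335 and 283 CPM (1.95 ± 0.30 SE, edgeR adjusted p = 8.8e-06). SLC7A8, a close relative of SLC7A5 with a similar range of substrates, was lower, at 13.7 and 12.4 against 179.5 and 162 CPM (-3.71 ± 0.23 SE, edgeR adjusted p = 2.2e-12). In fatty acid synthesis, again a list added after values were seen, FADS1, a desaturase neighbouring FADS2, read 83 and 72.9 against 132 and 158 CPM (-0.89 ± 0.18 SE, edgeR adjusted p = 0.00024). FASN, fatty acid synthase, read 3001 and 3951 against 2593 and 3312 CPM and SCD, stearoyl-CoA desaturase, 1454 and 1307 against 1772 and 1910.01 CPM, and neither was called. Of 22 genes of cholesterol synthesis and uptake, 5 were higher and 4 lower (22.7% and 18.2%, beside 19.3% and 21% of all genes; median 0.05), and 2 or 3 were higher and 4 lower without any 1 library.

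Of 28 proliferation genes, 0 were higher in MDAPCa2a and 9 lower (0% and 32.1%, beside 19.3% and 21% of all genes; median -0.62). Without the second LNCaP library or the first MDAPCa2a library 4 of the 28 were lower. MCM2, a subunit of the replication helicase, read 29.6 and 37.6 CPM in MDAPCa2a and 148 and 177 CPM in LNCaP (-2.27 ± 0.31 SE, edgeR adjusted p = 1.7e-06). MCM6 read 44 and 43.9 against 103 and 117 CPM (-1.32 ± 0.23 SE, edgeR adjusted p = 4e-05). MKI67, a marker of cycling cells, read 57.1 and 139 against 65.7 and 83.7 CPM and was not called. Tumour suppressors and mismatch repair genes gave 4 higher and 5 lower of 24 (16.7% and 20.8%, beside 19.3% and 21% of all genes), shares near those of all genes, and 2 or 3 lower without the second LNCaP library or either MDAPCa2a library. Of 18 bone turnover genes tested 3 were higher, EDN1 among them, and 3 lower (16.7% and 16.7%, beside 19.3% and 21% of all genes). With any 1 library left out 1 was higher and 1 to 4 lower, and EDN1 kept its call each time. ACKR3, a scavenger receptor of the chemokine CXCL12, was the largest of the lower ones, at 0.714 and 0.276 against 125 and 149 CPM (-8.11 ± 0.77 SE, edgeR adjusted p = 6.2e-09). By chromosome, the share of called genes that were higher in MDAPCa2a was 68.0% on chromosome 2, 67.2% on chromosome 13 and 66.3% on chromosome 22. It was 36.7% to 56.8% on the other autosomes and X, while over all genes 3335 were called higher and 3630 lower. Chromosome 8 had the largest share of tested genes called in either direction, 54.9%, beside 40.2% of all genes, and the largest median difference, 0.27. Copy number is not part of these data.

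**Figure D5:**
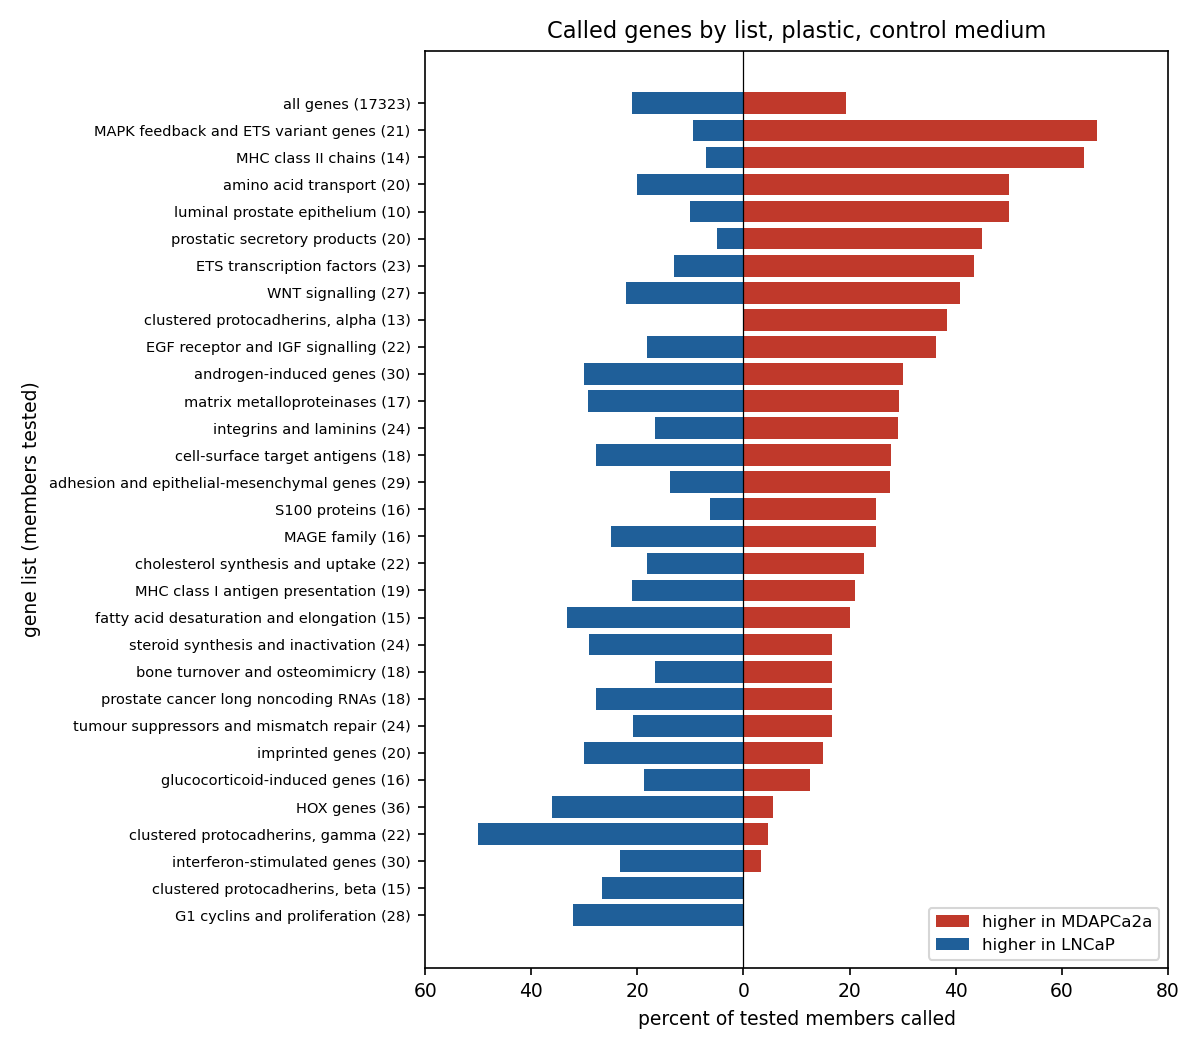
Share of tested members called higher in MDAPCa2a (red, to the right) and higher in LNCaP (blue, to the left) in percent, for gene lists with at least 10 tested members, given in brackets, and for all 17323 genes (top bar, 19.3% and 21%). MAPK feedback and MHC class II genes have the longest red bars and gamma protocadherins the longest blue one.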

How the data were processed

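RNA of 34 libraries in 17 groups was sequenced after poly(A) selection. The authors deposited whole-number read counts per gene in a table of 26336 genes, made with STAR and HTSeq on hg19, per the submitters' processing notes. Their versions, filters and strand setting are not stated in the labels. Columns were assigned to samples through their names. Genes were kept with edgeR's filterByExpr by group (minimum count 10), scaled by TMM and fitted by edgeR 4.0.16 quasi-likelihood in R 4.3.3 over all 34 libraries, so that the lines share an estimate of spread with 17 residual degrees of freedom. The common biological coefficient of variation was 19.9%. P-values were adjusted by Benjamini-Hochberg over 17323 genes, and calls are at 0.05. SE is the size of the log2 difference divided by the square root of F.

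The change between media was tested as an interaction on plastic, control minus stripped serum. Where a line had 0 reads, a fold was computed against 3 counts over the group, and with 1 to 3 reads an exact 95% interval was given; these cover counting error only. On simulated counts, 40% of 200 genes changed by 1 on the log2 scale were recovered among 17173 genes, with 6.98% of calls false, and 93.5% of 200 genes changed by 2 among 17165 genes, with 3.11% false. Far more genes, 6965, were called in the real comparison than the 200 changed here, so these shares need not hold for it.

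Members and gene lists were chosen with earlier results of these data known. The naming rule took, among called genes without overlap and with at least 5 CPM in the higher line, the 12 largest log2 differences and the 6 largest CPM differences in each direction, and allowed called members of the gene lists. Uncalled genes and members of lists added after values were seen were chosen after their values were seen. Promoters are from RefSeq, matched by symbol. Alternatives were RLE scaling, no filter, DESeq2 1.42.0, fits of fewer libraries, a replicate block, a size threshold and leaving out each library. Some genes counted in these lists are not reported here by name.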

Additional observations from a re-analysis of the deposited data

Results flagged for a closer look

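For 313 genes the difference between MDAPCa2a and LNCaP was not the same in control medium and in stripped serum on plastic, by a test of the change itself; 1825 genes (10.5%) had an unadjusted p below 0.05. Values here are the log2 difference in control medium minus that in stripped serum, so a negative value means that MDAPCa2a stood higher relative to LNCaP in stripped serum. CYP11A1, the first enzyme of steroid synthesis, changed most among the genes described, by -9.40 ± 0.95 (SE; edgeR adjusted p = 1e-06). Androgen-induced and prostate secretory genes changed in the same direction: KLK3 (-5.02), KLK2 (-4.74), PGC (-6.69), TMPRSS2 (-3.43), FKBP5 (-3.37), CENPN (-2.54), PMEPA1 (-2.50), SORD (-2.15), ELOVL5 (-3.33), ABHD2 (-2.04) and AGR2 (-2.62). The corticosteroid-induced genes SGK1 (-2.93) and TSC22D3 (-2.57) did so as well, as did the lipid enzymes FASN (-1.87), SCD (-1.92) and FADS1 (-1.17). Further negative values were those of HLA-DPB1 (-3.52), GRPR (-3.41), IGF1R (-3.72) and KRT19 (-2.40).

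The opposite change, with MDAPCa2a relatively higher in control medium, was seen in DDC (5.42), whose difference went from 3.01 to -2.41. The cytoskeletal genes VIM (4.49) and MSN (3.44) and the WNT genes WNT5A (3.03), LEF1 (2.25) and RNF43 (1.27) also had positive values, as had HOXC9 (4.40), HOXC13 (2.03) and BEX2 (2.28). Each of these genes passed the test of the change at an adjusted p below 0.05 in edgeR, the weakest being RNF43 (0.048). With 2 libraries in each group, no single library was tested as an outlier. Serum and kind of library (continuous culture or day 4, by the labels) cannot be told apart in any of these changes.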

How the results depend on the processing

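The count of genes differing on plastic in control medium was 6965, and every alternative kept it within 1.5 times: from 4691 with a size threshold of 1 on the log2 scale to 10243 when the 4 libraries were fitted alone. Leaving out 1 library gave 5130 to 5260 genes here, 5638 to 6369 on plastic with stripped serum, 5934 to 6543 on ACP with stripped serum and 5957 to 6429 on ACP with androgen. The size threshold brought the ACP counts to 5189 with stripped serum and 5223 with androgen, fewer by its own construction. The change between media, with 313 genes, gave 766 in a fit of the compared groups only, 457 with DESeq2, 439 without the filter and 151 to 218 with 1 library left out; the cause was not tested. Of 135 called genes named in the text, 128 kept their call under all 10 alternatives with a test. The other 7 lost it in at least 1, and 0 reversed. The replicate numbers 1 and 2 are shared by the groups, but nothing in the labels pairs the samples, and the deviations of same-numbered libraries correlated at 0.0194 across genes. With the replicate number as a block, 7280 genes were called here, and 326 changed between media. Depth limits genes with few reads: CIITA rests on 10 and 18 reads in the lines.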
